A study of Mus musculus with 2 samples.

Results

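The immediate early genes are a set of 10 genes, chosen by symbol, out of 41459 genes listed in each library: Fos, Fosb, Jun, Junb, Atf3, Egr1, Nr4a1, Ier2, Zfp36 and Dusp1. All 10 were counted in both libraries. The data are single-cell RNA sequencing by droplet capture, which counts transcripts through unique molecular identifiers (UMIs). Whole testes were taken at 55 days of age from a male Rad21l-/- mouse (KO) and a male Rad21l+/+ mouse (WT), with 1 library of each. RAD21L is a cohesin subunit made in meiosis, and male mice without it are known to stop in meiotic prophase. The labels do not say how the null allele was made or whether testes were pooled, and they name no other allele or treatment.

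Immediate early genes are switched on within minutes of a stimulus, without new protein synthesis, when signalling kinases act on factors already bound at their promoters, chiefly SRF with its partners and CREB. Most of their products are transcription factors that turn on a later wave of genes, and some, such as Zfp36 and Dusp1, shut the response down. In the testis they are known to respond to hormones, as Nr4a1 does to luteinizing hormone in Leydig cells. Both testes were disaggregated before loading, a step known from other tissues to induce these genes, and its part in the levels given here was not tested.

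Promoters are shown because one letter motif recurs upstream of several of these genes. A link between the motif and the levels of the genes across classes was not tested. RefSeq (build GRCm38.p6) gave promoters for 8 of the 10 genes, covering 250 bases before to 50 after the start of transcription. Egr1 and Ier2 had no matched promoter, and sites outside this window were not searched in any gene. Each was searched on both strands for TGACG, the core letters of a CREB site, for TGACGTCA, the full site, which holds TGACG on both strands, and for the CArG box bound by SRF. TGACG stood in 6 of the 8 promoters, those of Fos, Fosb, Junb, Atf3, Nr4a1 and Dusp1, and in 20.8% of 32851 promoters of all genes. TGACGTCA was found in 1 of the 8, that of Dusp1, and in 1.79% of all promoters. A CArG box was found in 1 of the 8, that of Zfp36, and in 1.63% of all promoters. The 250 bases before the start are printed for Fos, Junb, Nr4a1 and Dusp1, with TGACG, or CGTCA on the other strand, in capitals. Fos and Junb were highest in stromal-like cells. Nr4a1 and Dusp1 had the lowest Pearson's r with the other members across the classes of both libraries (0.83 and 0.93). The choice was made after their values were seen. Fos lies at chr12:85473640-85473889 on the plus strand and has 2 matches. Junb lies at chr8:84978749-84978998 on the minus strand and has 1. Nr4a1 lies at chr15:101266596-101266845 on the plus strand and has 4. Dusp1 lies at chr17:26508473-26508722 on the minus strand, and its 3 matches include the full site.
Fos: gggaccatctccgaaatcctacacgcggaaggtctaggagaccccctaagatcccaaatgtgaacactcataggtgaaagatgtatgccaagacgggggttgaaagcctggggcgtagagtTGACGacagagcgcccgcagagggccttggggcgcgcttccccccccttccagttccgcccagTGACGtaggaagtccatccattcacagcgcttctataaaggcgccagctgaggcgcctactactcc
Junb: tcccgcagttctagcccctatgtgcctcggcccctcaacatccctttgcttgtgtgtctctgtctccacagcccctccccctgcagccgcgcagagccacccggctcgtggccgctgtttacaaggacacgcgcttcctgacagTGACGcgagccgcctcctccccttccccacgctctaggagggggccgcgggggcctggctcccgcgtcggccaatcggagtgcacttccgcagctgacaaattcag
Nr4a1: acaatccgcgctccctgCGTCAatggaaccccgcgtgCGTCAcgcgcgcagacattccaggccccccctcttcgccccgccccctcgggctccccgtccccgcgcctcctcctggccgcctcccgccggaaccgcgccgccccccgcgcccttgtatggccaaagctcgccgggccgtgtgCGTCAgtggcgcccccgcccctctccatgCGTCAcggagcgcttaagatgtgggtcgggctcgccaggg
Dusp1: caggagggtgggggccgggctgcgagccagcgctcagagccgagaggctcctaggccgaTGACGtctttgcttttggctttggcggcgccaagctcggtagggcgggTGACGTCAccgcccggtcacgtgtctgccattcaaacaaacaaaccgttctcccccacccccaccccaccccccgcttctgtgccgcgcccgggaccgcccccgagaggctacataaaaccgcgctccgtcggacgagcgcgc

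The KO library held 28001992 UMIs in 7118 barcodes and the WT library 33096309 UMIs in 5415 barcodes; 6381 KO and 5400 WT cells were kept, with medians of 3460 and 2230.5 UMIs. The libraries shared 14 barcode sequences. Rad21l transcripts were still counted in the KO library, at 12.6 counts per 1000000 UMIs (CPM) in KO early germ-like cells (the spermatogonia-like and early prophase-like classes) and 44.4 CPM in WT early germ-like cells, and the labels do not say which part of the gene is lost. Cells were placed in classes by the share of their UMIs that fell on marker genes of each class. A class name ends in "-like" because only markers stand behind it. In KO, 3931 cells were somatic-like and 1318 were spermatogonia-like or early prophase-like. In WT, 102 cells were somatic-like, 201 were of those early germ classes and 4106 were pachytene and diplotene-like or spermatid-like. Each genotype has a single library, so the data hold no replicates and give no test. Ranges in parentheses are 95% intervals (exact Poisson for levels, exact Clopper-Pearson for shares of cells, exact conditional binomial for ratios) that cover counting error only.

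In the KO testis the immediate early genes were highest in the cells around and between the tubules. Stromal-like cells, which resemble fibroblasts, gave 3.31% of all their UMIs to the 10 genes, or 33053 CPM (32739 to 33370). Myeloid-like cells, macrophages and related cells, held 18479 CPM and endothelial-like cells 18114 CPM, a pair whose ratio of 1.02 (0.982 to 1.06) did not separate them. Myoid-like cells, the contractile cells around the tubules, held 15042 CPM, and Leydig-like cells, which make testosterone, held 11239 CPM. The place of the 53 endothelial-like cells depends on depth and weighting. Split at the median depth, their deeper and shallower cells held 20739 and 9583 CPM, against 18640 and 18158 CPM in myeloid-like cells. With every cell weighted equally, endothelial-like cells held 14404 CPM, myeloid-like cells 17986 CPM and myoid-like cells 14644 CPM. Sertoli-like cells, the somatic cells inside the tubules, stood well below all of these at 2633 CPM (2599 to 2666). Early prophase-like cells held 800.2 CPM and spermatogonia-like cells 746.3 CPM, the lowest of the KO classes of over 50 cells.

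**Figure D1:**
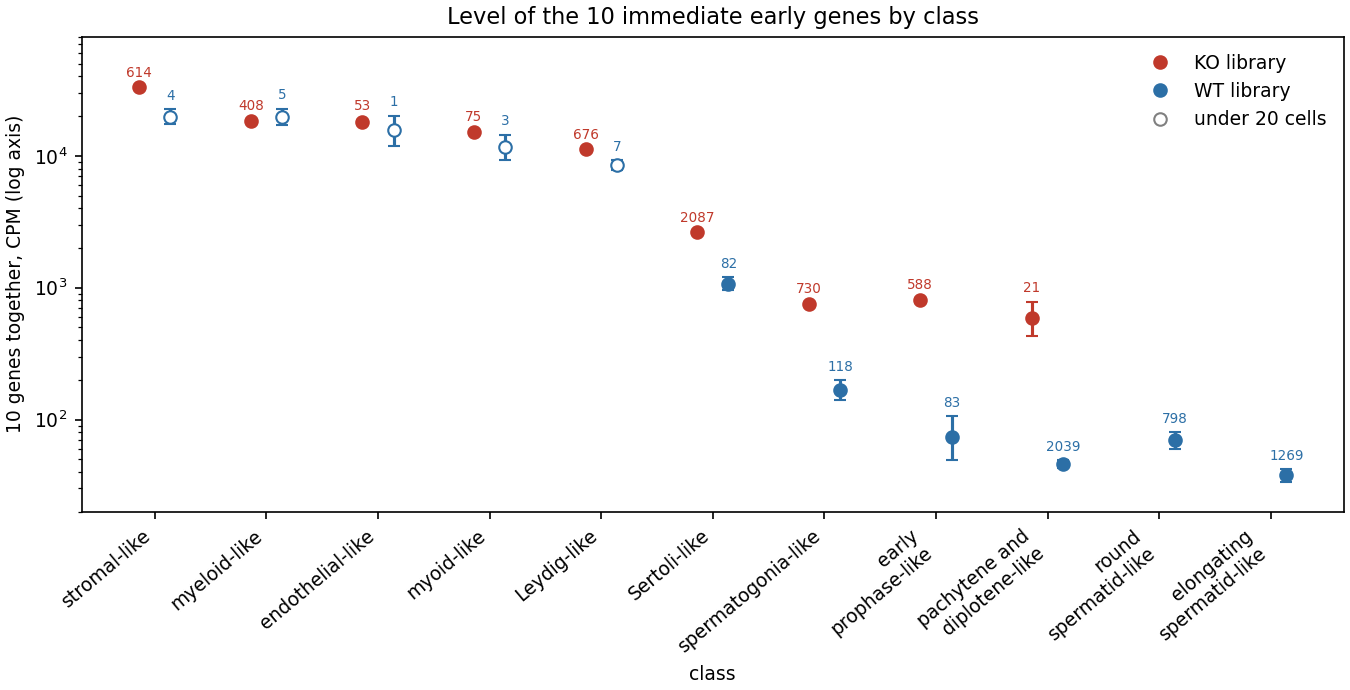
Level of the 10 immediate early genes together, in CPM on a log axis, in each class of the KO (red, left) and WT (blue, right) library, with exact Poisson 95% intervals and the number of cells above each point; open points stand for classes of under 20 cells. KO levels run from 33053 CPM in stromal-like cells to 746.3 CPM in spermatogonia-like cells and 586.8 CPM in 21 cells over the pachytene gate, and the WT germ classes lie between 37.6 and 167.6 CPM.

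The AP-1 subunits Fos, Fosb, Jun and Junb, which pair to bind DNA as the factor AP-1, had their highest level in stromal-like cells. Fos was counted there at 6571 CPM, against 3562 CPM in endothelial-like, 3299 in myeloid-like, 2750 in myoid-like and 2270 in Leydig-like cells. It stood at 459.7 CPM in Sertoli-like cells, at 145.2 CPM in spermatogonia-like and 140.7 CPM in early prophase-like cells, which did not separate (ratio 1.03, with an interval that holds 1). Jun was counted at 7246 CPM in stromal-like, 4170 in myeloid-like, 2502 in Leydig-like, 2204 in myoid-like and 604.2 in Sertoli-like cells. Junb stood at 4957 CPM in stromal-like cells, and its next 3 classes lay between 2402 and 2649 CPM without separating from their neighbours. Fosb stood at 2859 CPM in stromal-like, 1097 in Leydig-like and 912.2 in myoid-like cells. For Fosb and Jun, myoid-like cells were the lowest of the 5 interstitial classes, while for Fos and Junb the Leydig-like cells were.

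Egr1, a zinc finger factor that answers growth signals, followed the AP-1 genes. Its level was 5545 CPM in stromal-like cells, 2745 in endothelial-like, 2231 in myoid-like, 2189 in myeloid-like and 1629 in Leydig-like cells. Egr1 stood at 502.6 CPM in Sertoli-like cells, where it took 19.1% of the UMIs of the 10 genes, against 16.8% in stromal-like cells. Ier2, a nuclear protein induced by growth factors, was also highest in stromal-like cells, at 1553 CPM, and its levels of 528.5 to 739.8 CPM in the other 4 interstitial classes did not separate from one class to the next.

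Atf3 did not follow this order, and Nr4a1 followed it in part. Atf3, a factor of the CREB/ATF family induced by stress, was highest in myoid-like cells at 1572 CPM and next in myeloid-like cells at 1376 CPM. In stromal-like cells it reached only 325.0 CPM (294.5 to 357.8), so that it made up 0.983% of the UMIs of the 10 genes there, against 10.4% in myoid-like, 7.45% in myeloid-like and 5.61% in Sertoli-like cells. The share of cells with an Atf3 UMI was 77.3% in myoid-like, 67.4% in myeloid-like and 27.0% in stromal-like cells, whose median cells held 2680, 2434.5 and 2046.5 UMIs. After thinning every cell of at least 1000 UMIs to that depth, these shares were 60.3%, 57.4% and 20.5%, in the same order. Thinning left out 2 of 75 myoid-like, 21 of 408 myeloid-like and 53 of 614 stromal-like cells as too shallow. Nr4a1, an orphan nuclear receptor, stood at 903.2 CPM in myoid-like and 882.5 CPM in stromal-like cells, which did not separate (ratio 1.02, 0.876 to 1.19). Leydig-like cells held 134.1 CPM of Nr4a1, the lowest of the 5 interstitial classes.

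The feedback genes parted as well. Zfp36, which sends mRNAs with AU-rich elements to decay, followed AP-1, at 2380 CPM in stromal-like cells and 1234 to 1278 CPM in myoid-like, endothelial-like and myeloid-like cells, which did not separate from their neighbours. Dusp1, the phosphatase that switches off MAP kinases, was highest in myeloid-like cells at 1215 CPM (1149 to 1283), then in endothelial-like cells at 900.9 CPM and in stromal-like cells at 736.1 CPM. Myoid-like cells held 243.9 CPM of Dusp1, the lowest interstitial level, and Sertoli-like cells 34.9 CPM, no more than the 36.7 CPM of spermatogonia-like cells (ratio of spermatogonia-like to Sertoli-like 1.05, 0.863 to 1.27). Dusp1 was thus the one gene of the 10 whose Sertoli-like level did not exceed both early germ classes.

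**Figure D2:**
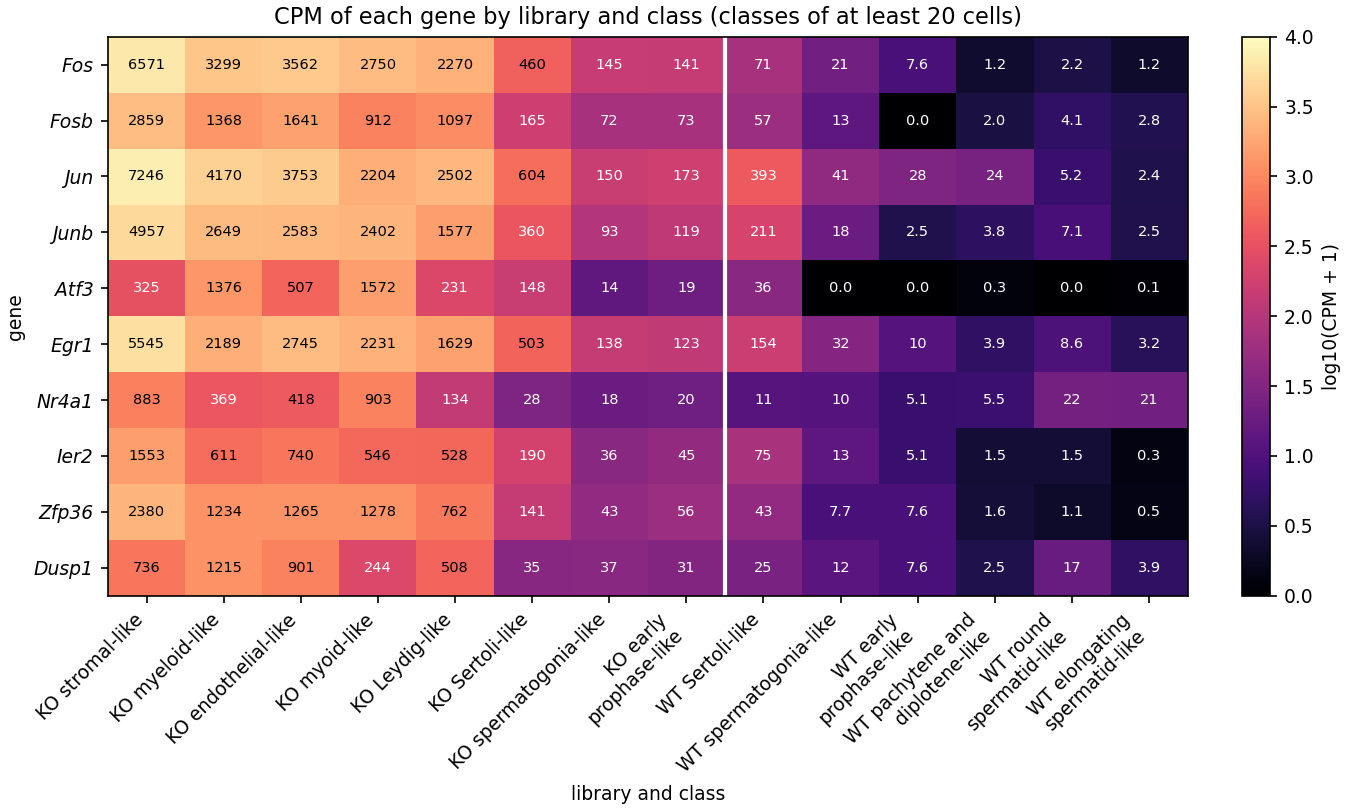
CPM of each of the 10 genes (down) in each KO class (left of the white line) and WT class (right) of at least 20 cells, coloured by log10(CPM + 1); the 21 KO cells over the pachytene gate are left out. Stromal-like cells hold the highest value of 7 genes, while Atf3 is highest in myoid-like cells at 1572 CPM and Dusp1 in myeloid-like cells at 1215 CPM; Nr4a1 stands at 903.2 CPM in myoid-like and 882.5 CPM in stromal-like cells, which did not separate.

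The 18 KO lymphocyte-like cells, of which 5 of 7 markers were detected, had a make-up of their own. Junb was counted there at 1823 CPM (1452 to 2260) and took 45.1% of the UMIs of the 10 genes, against 13.7% to 16.0% in the 6 other KO somatic classes. Jun took 5.43% of them in lymphocyte-like cells. In all, 184 UMIs of the 10 genes stand behind these shares.

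Stromal-like cells held these RNAs almost throughout, while several other classes held cells with very few. The median stromal-like cell gave 3.32% of its UMIs to the 10 genes, with the 10th and 90th percentiles at 1.72% and 4.85%, and the highest cell 7.35%. After thinning to 1000 UMIs, 94.3% of the 561 stromal-like cells of at least that depth still showed at least 5 of the 10 genes. The median of these cells showed 8. The median myeloid-like cell gave 1.80% (percentiles 0.240% and 3.28%), so that a part of this class lay near the level of Sertoli-like cells, whose median was 0.181%. Endothelial-like cells ran from 0.130% to 3.09% between these percentiles, and Leydig-like cells from 0.362% to 1.90% around a median of 1.12%. In Sertoli-like cells the 10% of cells with most of these UMIs held 46.3% of them, against 19.9% in stromal-like and 19.8% in Leydig-like cells. Of KO early germ-like cells, 9.71% had no UMI of any of the 10 genes, the median cell gave 0.0539%, and the highest gave 2.48%.

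**Figure D3:**
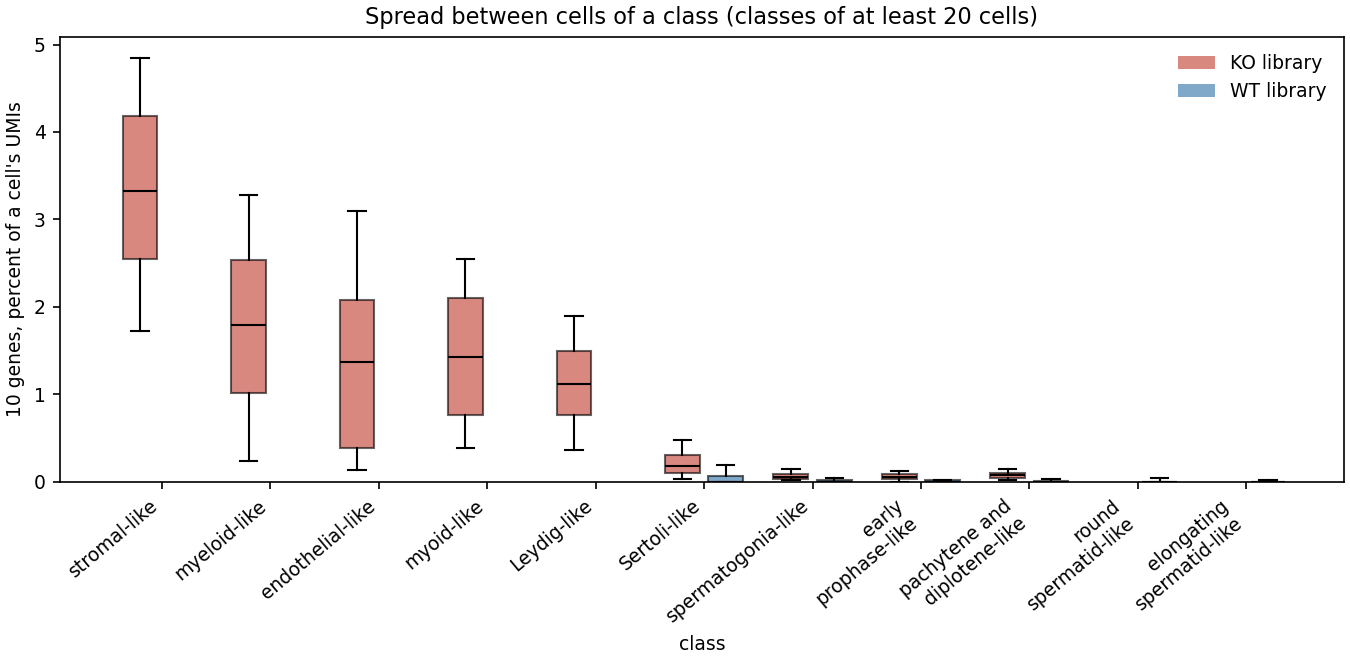
Percent of each cell's UMIs that fell on the 10 genes, by class of at least 20 cells, KO (red, left) and WT (blue, right); boxes run from the 25th to the 75th percentile with the median as a line, and whiskers from the 10th to the 90th. The KO stromal-like median is 3.32%, and the medians of the WT germ classes lie at 0.

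Within the interstitial classes, cells with more of one gene tended to hold more of another for many pairs of genes, but not for all. Spearman's rho between Fos and Jun over cells thinned to 1000 UMIs was 0.38 in 561 stromal-like cells and 0.32 in 669 Leydig-like cells, and 0.46 in 73 myoid-like cells. Fos and Dusp1 gave 0.42 in 387 myeloid-like cells and 0.20 in stromal-like cells. Over all pairs of the 10 genes the median rho was 0.18 in stromal-like, 0.23 in myeloid-like, 0.16 in Leydig-like and 0.31 in 45 endothelial-like cells. The lowest pair stood at -0.06, 0.02, -0.05 and 0.04 in these classes, and at -0.11 in myoid-like cells. Sertoli-like and germ classes had medians of 0.09 and under, with too few UMIs after thinning to be read. Cells of a class share their library and the RNA free in its suspension (free RNA), and the values are given as a description.

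Set against the KO early germ cells, the KO somatic cells as a whole held 11.5 times as much (11.2 to 11.8), at 8831 CPM in somatic-like and 766.5 CPM in spermatogonia-like and early prophase-like cells. All 10 genes were at least 2 times higher, where 30.0% of 16787 genes with at least 20 UMIs were and 28.7% were at least 2 times lower, so a 2-fold difference is common between these classes. The ratios ran from 8.73 for Nr4a1 to 18.3 for Atf3, with Fos at 11.9, Jun at 12.3 and Egr1 at 10.4. The median log2 ratio was 3.51 over the 10 genes and -0.11 over all genes. With each somatic-like class of at least 20 cells weighted equally, a choice made after seeing the data, the log2 ratio of the sum was 4.42 in place of 3.53, and after subtracting 10% of the library-wide mean profile, as a setting for free RNA, it was 5.85.

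Stromal-like cells in turn held 4.84 times the level of all other KO somatic cells (4.79 to 4.90), at 33053 and 6824 CPM. Here 9 of the 10 genes were at least 2 times higher, where 12.5% of 15178 genes were and 18.6% were at least 2 times lower. Nr4a1 had the largest ratio, 8.58 (7.94 to 9.27), at 882.5 CPM in stromal-like and 102.8 CPM in the other somatic cells. Dusp1 had a ratio of 2.62, and Atf3 did not pass, at 1.15 (1.04 to 1.27). The other somatic cells are mostly Sertoli-like (2087 of 3931 somatic-like cells).

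In KO germ cells the 10 genes stood at levels like those of somatic marker genes, which can reach these droplets as RNA free in the suspension. Each of the 10 genes stood at 7.0% (Atf3) to 16.5% (Dusp1) of its whole-library level in KO spermatogonia-like cells and at 9.69% (Atf3) to 17.0% (Nr4a1) in KO early prophase-like cells. In the same cells the 12 Sertoli markers stood at 17.1% and 19.7% of their library level, the 7 Leydig markers at 7.09% and 7.76%, the 8 stromal markers at 8.08% and 12.3%, the 7 myoid markers at 9.18% and 9.24%, and the 11 myeloid markers at 4.45% and 6.45%. None of the Sertoli, Leydig, myoid or myeloid markers and 1 of the 8 stromal markers was at 0. The immediate early genes thus lay within the range of these 5 lists of somatic markers. The 10 endothelial markers stood higher, at 69.2% and 38.4%, and the 7 lymphocyte markers, few of which were counted, at 22.2% and 147.8%. The make-up of the 10 genes was also near in KO somatic-like and KO early germ-like cells, with Fos at 19.3% and 18.7% of the sum, Jun at 22.1% and 20.7%, and Atf3 at 3.24% and 2.04%. Expression in germ cells and RNA from other cells cannot be told apart in these levels. After subtracting 10% of the library-wide profile, KO early germ-like cells kept 158.4 CPM, after 20% they kept 0 CPM, and without cells marked as doublets by Scrublet they held 581.8 CPM.

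**Figure D4:**
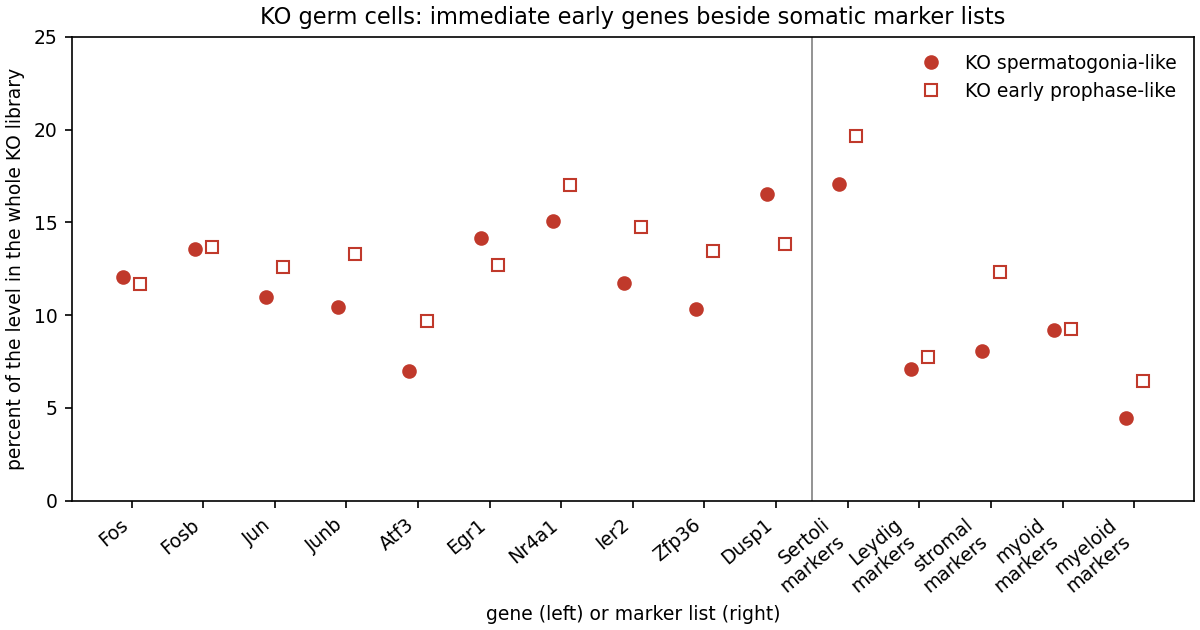
Level in KO spermatogonia-like (filled circles) and KO early prophase-like cells (open squares) as a percent of the level in the whole KO library, for the 10 immediate early genes (left of the line) and for 5 lists of somatic markers (right). The genes lie between 7.0% and 17.0% and the marker lists shown between 4.45% and 19.7%; the endothelial and lymphocyte lists are not drawn.

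The few interstitial cells of the WT testis also held these RNAs at a high level. The 1826 KO interstitial-like cells stood at 16145 CPM (16055 to 16235), and the 20 WT ones at 11705 CPM (11025 to 12416). By class, 4 WT stromal-like cells held 19798 CPM, 5 myeloid-like cells 19865 CPM, 3 myoid-like cells 11701 CPM, 7 Leydig-like cells 8463 CPM and the 1 endothelial-like cell 15608 CPM. Of the 20 WT cells, every one held UMIs of the 10 genes, at 0.321% to 3.15% of its UMIs. Atf3 again stood out in myoid-like cells, with 24 UMIs in 3 of 3 WT cells or 3343 CPM (2142 to 4974), beside 492.9 CPM (180.9 to 1073) in the WT stromal-like cells. Dusp1 in the 5 WT myeloid-like cells stood at 2122 CPM (1330 to 3212). These classes were too small to be set against KO by a ratio.

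Ratios between the genotypes were taken in classes of at least 20 cells in both libraries. In Sertoli-like cells the sum stood at 2633 CPM in KO and 1075 CPM in WT, a ratio of 2.45 (2.19 to 2.75), and 7 of 10 genes were at least 2 times higher in KO, where 8.47% of 13281 genes were and 26.0% were at least 2 times lower. Fos was counted at 459.7 CPM in KO and 71.4 CPM in WT, a ratio of 6.44 (4.16 to 10.5). Jun was counted at 604.2 CPM in KO and 392.8 CPM in WT, a ratio of 1.54 (1.27 to 1.88), and Junb at 359.8 CPM in KO and 210.7 CPM in WT. Atf3, Zfp36 and Egr1 followed Fos with ratios of 4.13, 3.29 and 3.27, and the genes under 2 times were Junb at 1.71, Jun at 1.54 and Dusp1 at 1.40 (0.670 to 3.50). Of the 82 WT cells, 46 lay within 1.5 times of the gate, and 62.2% had no UMI of the 10 genes. Elongating spermatid markers took 0% of the UMIs of the median KO Sertoli-like cell and 3.14% of the median WT one, against 3.46% in WT round spermatid-like cells, while Sertoli markers took 0.817% in KO and 0.565% in WT. The part of these markers in the ratio was not tested. Split at the median depth, the deeper and shallower KO cells held 2736 and 1917 CPM and the deeper and shallower WT cells 1297 and 40.4 CPM, so that the WT value rests on 41 cells. The median log2 ratio was 1.45 over the 10 genes and -0.08 over all genes. The log2 ratio of the sum was 1.29 from summed UMIs, 2.31 with every cell weighted equally and 2.63 in a single random thinning to 1000 UMIs. It was lower, at 0.84, with a stricter gate, and at 0.92 and 0.39 after subtracting 10% and 20% of each library-wide mean profile.

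In spermatogonia-like cells the sum stood at 746.3 CPM in KO and 167.6 CPM in WT, a ratio of 4.45 (3.74 to 5.35), and 9 of 10 genes were at least 2 times higher in KO, where 6.82% of 12885 genes were and 9.94% were at least 2 times lower. Nr4a1 was the exception, at 17.8 CPM in KO and 10.3 CPM in WT. In early prophase-like cells the sum stood at 800.2 CPM in KO and 73.6 CPM in WT, a ratio of 10.9 (7.55 to 16.3), and 10 of 10 genes passed, with counts under 3 set to 3, where 9.83% of 10819 genes did and 10.0% were at least 2 times lower. Atf3 had 60 UMIs in KO and 0 UMIs in WT spermatogonia-like cells, a ratio of 3.53 with the WT count set to 3 UMIs. The interval of the ratio from the counts as they stand begins at 2.79. The median log2 ratio of the 10 genes was 1.98 in the spermatogonia-like class and 2.76 in early prophase-like cells, and that of all genes 0.13 and 0.16. The whole KO library held 6239 CPM of the 10 genes and the whole WT library 103.4 CPM, and a difference between germ cells cannot be told apart from this difference in the libraries. After the same subtraction in both libraries, the log2 ratio in spermatogonia-like cells turned to -0.36, in place of 2.16, and that in early prophase-like cells was 1.48, in place of 3.44.

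A further 21 KO cells passed the pachytene gate, at 586.8 CPM, beside 46.0 CPM in 2039 WT cells. These KO cells also held early prophase markers, at a median of 0.219% of UMIs where the gate of that class is 0.177%. All genes with at least 20 UMIs had a median log2 ratio of 1.95 here and 66.4% of them were at least 2 times higher and 8.10% at least 2 times lower, with KO counts under 3 set to 3, so the ratio of 12.7 is not read further.

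WT germ cells after early prophase held less of these RNAs than WT spermatogonia-like cells (167.6 CPM, 140.0 to 199.0), and the genes no longer kept 1 make-up. Pachytene and diplotene-like cells held 46.0 CPM (43.0 to 49.3), round spermatid-like cells 69.6 CPM (59.9 to 80.3) and elongating spermatid-like cells 37.6 CPM (33.7 to 41.9). WT early prophase-like cells held 73.6 CPM (49.3 to 105.7), a range that holds the round spermatid-like value. Thinned to 1000 UMIs per cell, early prophase-like cells held 48.8 CPM and pachytene and diplotene-like cells 78.2 CPM. Round and elongating spermatid-like cells then held 90.4 and 35.5 CPM. Jun led in pachytene and diplotene-like cells, with 433 UMIs or 23.8 CPM (21.6 to 26.1), against 5.24 CPM (2.86 to 8.78) in round and 2.42 CPM (1.5 to 3.69) in elongating spermatid-like cells. It made up 51.6% of the sum there, and 7.53% and 6.42% in the spermatid-like classes. Junos, an antisense gene that overlaps Jun, had 287 UMIs in the KO library and 308 in WT, and without a stated strand of counting its reads and those of Jun cannot be told apart.

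Nr4a1 led in elongating spermatid-like cells and was high in round ones too. It was counted at 22.4 CPM (17.1 to 28.9) in round and 20.7 CPM (17.8 to 24.0) in elongating spermatid-like cells, against 5.49 CPM (4.47 to 6.68) in pachytene and diplotene-like cells. Its share of the sum was 32.3% in round and 55.0% in elongating spermatid-like cells. An Nr4a1 UMI was seen in 12.5% (10.8% to 14.5%) of elongating spermatid-like cells, with a median of 5541 UMIs, and in 4.51% of pachytene and diplotene-like cells, with a median of 1944 UMIs, but thinned shares of 1.58% and 1.16% are near the level of 1 UMI and give no order. Dusp1 stood apart in round spermatid-like cells alone of the 3 classes, at 17.2 CPM (12.6 to 22.9), beside 2.47 CPM in pachytene and diplotene-like and 3.91 CPM in elongating spermatid-like cells. Fos, by contrast, was counted at 1.21, 2.24 and 1.15 CPM in these 3 classes, and Atf3 at 0.274 CPM, 0 UMIs and 0.115 CPM. The intervals of Jun and of Nr4a1 in pachytene and diplotene-like cells did not overlap those in either spermatid-like class. The share of all genes that differ so between these classes was not taken, so these differences are not set against those of other genes. The part of free RNA in these levels was not tested.

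**Figure D5:**
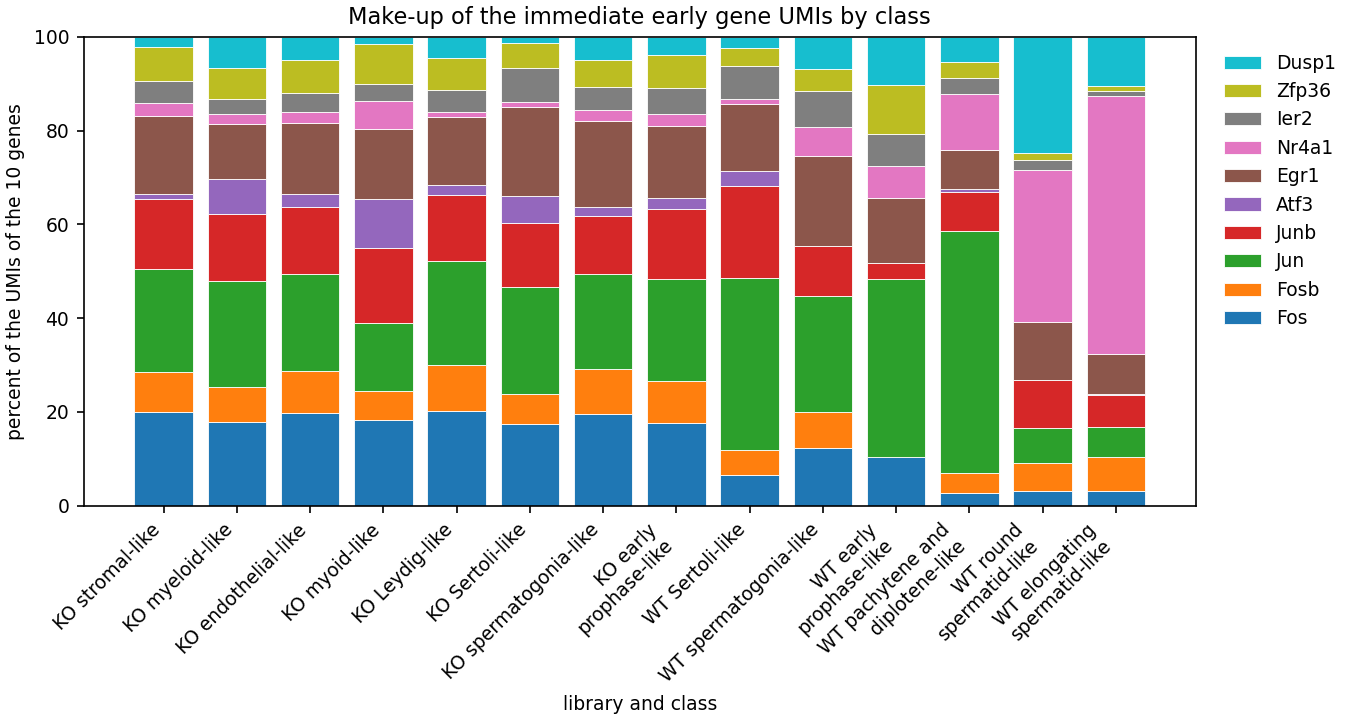
Percent of the UMIs of the 10 genes that each gene gives, by class of at least 20 cells, KO left and WT right. The 21 KO cells over the pachytene gate are left out. Among the KO bars Atf3 runs from 0.983% in stromal-like to 10.4% in myoid-like cells, while in WT Jun gives 51.6% in pachytene and diplotene-like cells and Nr4a1 55.0% in elongating spermatid-like cells.

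Other genes of the pathway were followed in lists chosen by role. Of 49 other early response genes, 37 were at least 2 times higher and 3 at least 2 times lower in KO somatic-like than in KO early germ-like cells, where 30.0% of all genes were higher and 28.7% lower. Their median log2 ratio was 2.16. Btg2, which curbs proliferation, stood at 2656 CPM in stromal-like and 2493 in myoid-like cells, against 83.1 CPM in spermatogonia-like cells. Klf4, a zinc finger factor, stood at 2855 CPM in stromal-like and 1692 CPM in myeloid-like cells, against 94.7 CPM in spermatogonia-like cells. Of 20 upstream kinases and factors, 4 were at least 2 times higher and 5 lower, near the shares over all genes, with a median log2 ratio of -0.65. Of 13 heat shock genes, 4 were higher and 1 lower, with a median of 0.02, and their sum was lower in somatic-like cells, at 6450 CPM, than in the germ cells, at 9559 CPM. Between the genotypes, in Sertoli-like cells, 21 of 45 other early response genes with enough UMIs were at least 2 times higher in KO and 4 lower, where 8.47% of all genes were higher and 26.0% lower. In the same cells 2 of 19 upstream genes were at least 2 times higher, near the share over all genes, and 15 of 19 were above 1, with a median log2 ratio of 0.46. Of 13 heat shock genes, 1 was higher and 2 were lower. In spermatogonia-like cells 14 of 43 other early response genes were at least 2 times higher in KO and none lower, where 6.82% of all genes were higher and 9.94% lower, with a median log2 ratio of 0.58. In that class the ratio of the 10 genes together reversed after 10% of the library-wide profile was subtracted, as given above.

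Nuclear RNA moved with the members in part. Malat1 and Neat1, RNAs kept in the nucleus, together stood at 61802 CPM in stromal-like and 101353 CPM in Leydig-like cells, against 13789 CPM in Sertoli-like and 4671 CPM in spermatogonia-like cells. Leydig-like cells thus held the most of these RNAs but the least of the 10 genes among the 5 interstitial classes. Between the genotypes the same RNAs stood at 13789 CPM in KO and 7735 CPM in WT Sertoli-like cells, and at 4671 CPM in KO and 2277 CPM in WT spermatogonia-like cells. In KO the median mitochondrial share was 1.76% in stromal-like, 2.43% in myeloid-like, 3.91% in Sertoli-like and 2.33% in spermatogonia-like cells, and in WT it was 1.79% in Sertoli-like cells. The part of either measure in the levels of the 10 genes was not tested.

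Across the 15 classes of at least 20 cells in both libraries, 15194 other genes with at least 200 UMIs were ranked by Pearson's r of log2(CPM + 10) with the sum of the 10 genes. The most alike were Btg2 and Rhob (r = 0.98 each), both on the list of other early response genes. Next came Mbnl1, Sh3bgrl, Ddx3x, Sat1, Klf6 (also on that list), Slc48a1, Rps4x and Pnrc1 (r = 0.95 for the last). Of these 10 genes, 4 lie on the X chromosome (Sh3bgrl, Ddx3x, Sat1 and Rps4x), as do 546 (3.65%) of the 14975 ranked genes with a chromosome in RefSeq. Each member taken against the other 9 gave r from 0.83 for Nr4a1 and 0.93 for Dusp1 to 0.997 for Junb. The 15 points share 2 libraries and their free RNA, and these values are a description. Among the points are the 21 KO cells over the pachytene gate, whose ratio to WT was not read further.

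Where genes overlap, their counts are less certain. By a GENCODE annotation of GRCm38, Junb overlaps Prdx2 and Dusp1 overlaps Ergic1, each on the other strand. Prdx2 had 12325 UMIs in KO and 663 in WT, and Ergic1 1170 in KO and 612 in WT.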

How the data were processed

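Single cells of whole testis were measured in 1 KO and 1 WT library. The deposited values are raw UMI counts per gene and barcode, for which the authors ran Cell Ranger 6.1.2 as the file headers name it; Seurat 4.3 and the genome GRCm39 are also named, per the submitters' processing notes. How barcodes were called as cells and whether counting used strand is not given in the sources used here. Promoters come from a RefSeq table of another build, GRCm38.p6, and their coordinates were not joined to the counts.

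Kept cells had 500 or more detected genes and no more than 20% of UMIs on 24 mitochondrial rRNA and tRNA genes. A cell entered a class when at least 3 UMIs and a share of its UMIs above the gate fell on that class's markers (114 genes, 13 classes). The gate was 0.25 times the median share of the 50 cells with the highest share, among cells of at least 1000 UMIs. Cells over the gates of 2 unrelated classes within 2 times were called mixed (268 KO and 172 WT cells), and 839 KO and 819 WT cells passed no gate. Levels are UMIs summed over the class per 1000000 UMIs (CPM). Thinned values draw 1000 UMIs at random from each cell of at least that depth. Shallower cells are left out of them, such as 569 of 2087 KO Sertoli-like cells. Genes with at least 20 UMIs entered the ratios, counts under 3 were set to 3, and a ratio of at least 2 was counted. Scrublet (scanpy 1.11.5) marked 1.97% of KO cells and 0.0185% of WT cells, too few in WT to have worked, and doublets were kept. Only the count of ratios of at least 2 and the interval of ratios were tested on simulated data, with UMIs drawn independently for each gene. The gates, cell filters, thinning, doublet calls and free RNA settings were not simulated. Python 3.11.15, numpy 2.4.6, scipy 1.17.1 and pandas 2.3.3 were used.

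The 10 genes, the markers and the lists were chosen with earlier results of these data known. Named genes are the 10 members, up to 5 genes of each list with most UMIs, and the 10 other genes most like the summed members. Alternatives to the gate, filters, doublets, free RNA, totals, depth and scaling were run.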

Additional observations from a re-analysis of the deposited data

How the results depend on the processing

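Of 85 alternative values of the 7 main results, 42 moved by less than their counting interval, 42 moved further and 1 reversed. Stromal-like cells held the highest KO level, and all 6 somatic-like classes stood above both germ classes, in 13 of 13 settings. The main values were 2633 CPM in KO Sertoli-like, 33053 CPM in KO stromal-like and 766.5 CPM in KO early germ-like cells, and log2 ratios of 3.53 (KO somatic-like over early germ-like), 1.29, 2.16 and 3.44 (KO over WT in Sertoli-like, spermatogonia-like and early prophase-like cells).

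A looser gate gave 702 CPM in early germ-like cells and log2 ratios of 3.68 for somatic-like over germ-like, 1.48 for Sertoli-like and 2.48 for spermatogonia-like cells. A stricter gate gave 2478 CPM in Sertoli-like and 705 CPM in early germ-like cells, and 0.84 for the Sertoli-like ratio. At least 1000 genes per cell gave 2696 and 743 CPM in these classes and a ratio of 3.57 for somatic-like over germ-like. Without cells marked by Scrublet these were 2584 CPM, 582 CPM and 3.93, and the spermatogonia-like ratio was 1.82. Here 126 cells were taken out of the KO library and 0 out of WT, so the ratios of KO over WT changed on the KO side only. With 10% of the library profile taken off, levels were 2232 CPM in Sertoli-like, 36033 CPM in stromal-like and 158 CPM in early germ-like cells, with ratios of 5.85 for somatic-like over germ-like, 0.92 for Sertoli-like, -0.36 for spermatogonia-like and 1.48 for early prophase-like cells. With 20% off they were 1731, 39757 and 0 CPM, the Sertoli-like ratio was 0.39, and the other ratios had no value. The mean of cells gave 2348 CPM, 803 CPM, 3.74 for somatic-like over germ-like and 2.31 for Sertoli-like. Totals without the 50 most abundant genes gave 3114 CPM in Sertoli-like, 42006 CPM in stromal-like, 892 CPM in early germ-like cells and 3.59 for somatic-like over germ-like. Cells thinned to 1000 UMIs gave 2339 CPM, 807 CPM, and ratios of 3.89 for somatic-like over germ-like, 2.63 for Sertoli-like and 4.99 for early prophase-like. Of the settings chosen after seeing the data, the cells above the median depth of their class gave 2736 CPM in Sertoli-like, 33429 CPM in stromal-like cells, and ratios of 3.33 for somatic-like over germ-like and 1.08 for Sertoli-like, and equal class weights gave 4.42 for somatic-like over germ-like. By construction, the free RNA settings lower levels that lie under the level of the whole library and raise those over it. For the other settings the cause was not tested.

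No paired analysis was possible because each genotype has 1 library. There was no second replicate to leave out. WT levels of somatic classes rest on 1 to 7 cells outside the Sertoli-like class, and 8 of the 10 genes had 3 UMIs or fewer in WT early prophase-like cells.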

Other observations

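Klf4, a zinc finger factor on the list of other early response genes, stood at 292 CPM (272 to 313) in WT round spermatid-like cells, against 65.7 CPM in WT pachytene and diplotene-like and 46.6 CPM in WT elongating spermatid-like cells. Btg2, on the same list, had 8 UMIs or 2.99 CPM in the WT round spermatid-like cells.

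Cells outside the named classes also held the 10 genes. The 268 mixed KO cells stood at 4180 CPM and the 172 mixed WT cells at 466 CPM. The 839 ungated KO cells stood at 6166 CPM and the 819 ungated WT cells at 154 CPM, and the highest ungated KO cell gave 7.29% of its UMIs to the 10 genes. The 4 KO erythroid-like cells stood at 1184 CPM.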
